A study of Mus musculus with 4 samples.

Results

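Dopamine neurons were followed here through 10 genes that are used to recognise them, namely Th, Ddc, Slc18a2, Slc6a3, Aldh1a1, Ret, Nr4a2, Pitx3, Lmx1b and Drd2. The genes were chosen by symbol and looked up by Entrez identifier in a table of reads per gene, and 8 of the 10 were among its 12700 genes. Pitx3 and Lmx1b, transcription factors of midbrain dopamine neurons, had no row and are not analysed here. The study compared the brains of Ids-ko mice, a model of mucopolysaccharidosis type II (Hunter syndrome) in which the lysosomal enzyme iduronate 2-sulfatase is missing, with those of their wt littermates. All mice were C57BL/6 and 9 months old, and the labels give the genotypes as Ids-/- and wild type. Each brain was cut into Cx, the cerebral cortex, and M, which took in midbrain, diencephalon and hippocampus and, by the study's methods, also hypothalamus, thalamus and striatum. The RNA of 7 mice was pooled for each of the 4 libraries, CxH (Ids-ko cortex), CxWT (wt cortex), MH (Ids-ko M area) and MWT (wt M area). There were no replicates, so the spread between mice or pools is unknown and every error below covers counting of reads only.

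Dopamine neurons make their transmitter from tyrosine. Th (tyrosine hydroxylase) carries out the rate-limiting step and Ddc (aromatic L-amino acid decarboxylase) the next, Slc18a2 (VMAT2) loads dopamine into vesicles and Slc6a3 (the dopamine transporter, DAT) takes it back up after release. The cell bodies lie mainly in the substantia nigra and ventral tegmental area of the midbrain, with smaller groups in the hypothalamus, and their axons reach the striatum and the cortex, so that most of their mRNA is found in the midbrain. Th, Ddc and Slc18a2 are shared with noradrenaline neurons, Ddc and Slc18a2 with serotonin neurons, while Slc6a3 is the most restricted of the group. Aldh1a1 makes retinoic acid and oxidises the aldehyde of dopamine in a subset of these cells, Ret is the signalling receptor for GDNF, and Nr4a2 (Nurr1) is the nuclear receptor needed to form and keep them. Drd2, the D2 receptor, is an autoreceptor on dopamine neurons but is made in larger amounts by their target neurons in the striatum.

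The counted members lie on separate chromosomes except for Slc18a2 and Aldh1a1, both on chromosome 19. In GENCODE vM1 on the NCBIM37 (mm9) build, Th spans chr7:150078657-150117033 on the minus strand, Ddc chr11:11714104-11798047 (minus), Slc18a2 chr19:59335368-59370502 (plus) and Slc6a3 chr13:73674195-73716120 (plus). Aldh1a1 spans chr19:20676451-20717952 (plus), Ret chr6:118101766-118147762 (minus), Nr4a2 chr2:56959241-56976414 (minus) and Drd2 chr9:49148732-49216282 (plus). None shared exon bases with another annotated gene. The promoters of the 4 genes that make, store and recover dopamine are shown because their reads moved together between the libraries. They are RefSeq sequences (table on GRCm38.p6), placed on NCBIM37 by an exact match, and each run goes from 240 bases before the start of transcription to 10 bases after it, 5′ to 3′ along the gene, with motifs in capitals.
Th promoter, chr7:150085891-150086140, minus strand: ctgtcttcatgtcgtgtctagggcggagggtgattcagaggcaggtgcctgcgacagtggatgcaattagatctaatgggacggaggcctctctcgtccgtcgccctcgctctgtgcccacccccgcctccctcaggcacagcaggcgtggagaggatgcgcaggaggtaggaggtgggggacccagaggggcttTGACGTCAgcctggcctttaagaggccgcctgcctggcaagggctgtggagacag
Slc18a2 promoter, chr19:59335128-59335377, plus strand: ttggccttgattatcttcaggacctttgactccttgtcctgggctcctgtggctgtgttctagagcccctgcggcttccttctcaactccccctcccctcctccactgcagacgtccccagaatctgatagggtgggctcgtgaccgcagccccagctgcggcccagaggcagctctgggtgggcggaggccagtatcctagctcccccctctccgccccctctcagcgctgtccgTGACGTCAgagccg
Slc6a3 promoter, chr13:73673955-73674204, plus strand: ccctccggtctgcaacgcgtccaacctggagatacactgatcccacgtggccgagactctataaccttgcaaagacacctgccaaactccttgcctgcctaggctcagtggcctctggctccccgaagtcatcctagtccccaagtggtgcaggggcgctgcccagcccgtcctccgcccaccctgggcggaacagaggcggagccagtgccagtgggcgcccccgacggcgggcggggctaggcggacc
Ddc upstream promoter, chr11:11798138-11798387, minus strand: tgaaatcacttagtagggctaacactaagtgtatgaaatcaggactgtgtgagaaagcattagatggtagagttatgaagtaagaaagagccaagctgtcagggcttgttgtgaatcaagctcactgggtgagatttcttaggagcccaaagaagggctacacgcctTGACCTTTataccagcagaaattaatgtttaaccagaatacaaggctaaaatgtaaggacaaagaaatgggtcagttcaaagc
The Th window lies inside the annotated span of Th, which reaches further upstream. The capitals in Th and Slc18a2 are the cAMP response element, TGACGTCA, which reads the same on both strands. Its first base stands 45 bases before the start in Th and 4 before it in Slc18a2, where the motif runs over the start. It was added after the sequences had been read, and 1.79% of 32851 promoters of the same length (250 bases before to 50 after the start) hold it, or 2.86% of the 13044 promoters of counted genes. In Ddc the capitals mark the NGFI-B response element of Nr4a receptors, AAAGGTCA, here on the opposite strand as TGACCTTT, with its first base 73 before the start, and 1.51% of all promoters and 0.951% of those of counted genes hold it. The bicoid core of Pitx factors, TAATCC, was in none of the 11 windows found for 9 of the 10 members, against 7.06% of all promoters and 5.52% of those of counted genes. The Slc6a3 window held none of the 3 motifs on either strand. A further Ddc window, downstream at chr11:11790402-11790651 (minus), is not printed and held none of them either. Ret had no entry. These matches describe letters and not binding.

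Before the members, the labels were checked against genes with known places. Ids, the disrupted gene, had 135 RPM (reads per 1000000 aligned reads) in CxH and 354 in CxWT, but 368 in the library labelled MH and 155 in the library labelled MWT, so in M the reads of Ids went against the genotype label. Regional markers did not follow the area labels. The 9 markers of cortical projection neurons summed to 442 RPM in CxH and 426 in MH, against 95.3 in CxWT and 79.3 in MWT. The 5 thalamic markers gave 32.8 and 49.4 RPM in CxH and MH and 419 and 394 in CxWT and MWT. In the same way the 7 hypothalamic markers had 10.1 and 8.11 RPM in CxH and MH, and 82.7 and 65.4 in CxWT and MWT. The library labelled CxWT, a cortex, was thus low in cortical markers and rich in thalamic and hypothalamic ones, and the library labelled MH, from the M area, was the reverse. A list of 5 midbrain factors had 5.97 and 5.17 RPM in CxH and MH and 26.6 and 22.2 in CxWT and MWT. Summed hippocampal markers ranged from 74.9 to 117 RPM over the libraries, with 3 of 5 called higher in MH vs. MWT (12.3% of all genes). In CxH vs. CxWT 1 of them was called higher (9.46%) and 1 lower (11.5%). The summed level of 5 markers of astrocytes ranged from 1762 to 2784 RPM. Within the astrocyte list 2 genes were called higher (9.46% of all genes) and 1 lower (11.5%) in CxH vs. CxWT. In MH vs. MWT 0 were called higher and 2 lower (12.7%). Gfap was higher in the first pair (1.11) and lower in the second (-1.13), and Slc1a2 was higher in the first (0.84). Aqp4, a water channel, was lower in both (-0.80 and -1.30), and Slc1a3 and Aldh1l1 were called in neither. The 5 oligodendrocyte markers summed to 8419 RPM in CxWT, 6622 in MWT, 4413 in CxH and 4611 in MH, each of them higher in CxWT and MWT than in CxH and MH, as were 6 of the members. By the rule for calls given below, 5 of 5 were lower in CxH vs. CxWT (11.5% of all genes) and 2 of 5 in MH vs. MWT (12.7%), and their part in the members' ratios was not tested. The summed level of 5 microglial markers was higher in the libraries with less Ids, at 423 RPM in CxH and 315 in MWT, against 244 in MH and 207 in CxWT. Of them 3 were called higher in CxH vs. CxWT (9.46% of all genes) and 2 lower in MH vs. MWT (12.7%). Csf1r (65.9 RPM in MWT and 83.1 in MH) and Cx3cr1 (57.7 and 58.7) were not higher in MWT than in MH. General neuronal genes summed to between 2376 and 2710 RPM for a list of 5, and 4 of them were called in neither CxH vs. CxWT nor MH vs. MWT, while Rbfox3 (NeuN) was called higher in both, with log2 ratios of 1.43 and 1.61. By the cortical, thalamic, hypothalamic and midbrain lists CxH was like MH and CxWT like MWT, and by Ids CxH was like MWT and CxWT like MH. Libraries are named here by their labels throughout, and any direction drawn from MH, MWT or CxWT rests on labels that these genes do not bear out. In CxH vs. CxWT and MH vs. MWT both Ids and the regional markers differed, and the other pairs are given after these. In bulk tissue, fewer cells of a type and less RNA per cell cannot be told apart.

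**Figure D1:**
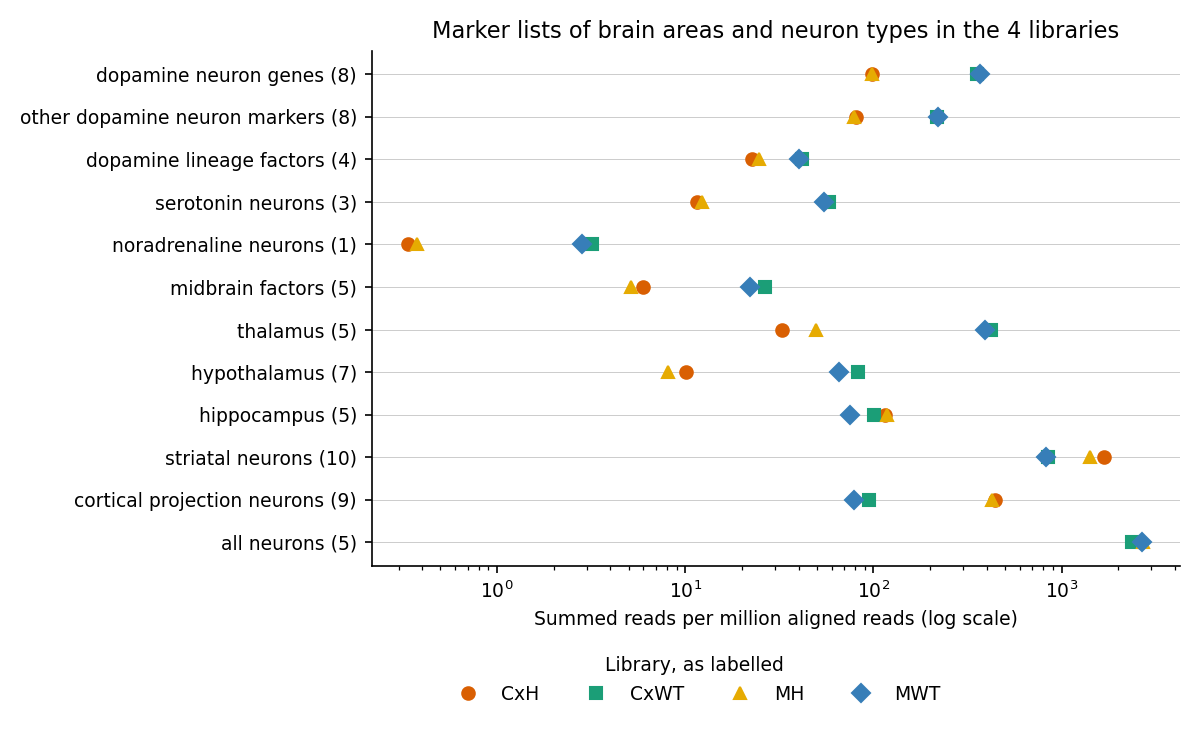
Summed RPM (log scale) of the counted genes of each list, with the number of genes in brackets, in the 4 libraries. The 8 dopamine neuron genes lie at 98.5 and 98.8 in CxH and MH and at 355 and 369 in CxWT and MWT, on the same side as the thalamic, hypothalamic and midbrain lists, and the cortical and striatal lists lie on the other side.

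Reads in the table numbered between 16380080 (MWT) and 23475080 (CxH) a library, and 3 reads, taken as the floor, correspond to 0.0779 to 0.104 RPM. RPM scales the reads of a gene to all aligned reads of its library. A call between a pair of libraries asked for a log2 ratio of 0.7 or more in size and for a p-value under 0.05 in a likelihood ratio test on the reads, the criteria of the study's methods. Such a call compares those libraries, not the conditions.

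The enzymes of dopamine synthesis were high in CxWT and MWT and low in CxH and MH. Th had 39.8 RPM in CxWT (1337 reads) and 32.5 in MWT (941 reads), against 5.53 in CxH (213 reads) and 4.76 in MH (178 reads). Ddc had 35.0 RPM in CxWT, 33.7 in MWT, 4.10 in CxH and 4.92 in MH, and values without a library name below keep this order. For both enzymes the libraries labelled Ids-ko lay together, several times below the libraries labelled wt, and libraries with the same genotype label had like levels.

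The transporters were further apart. Slc18a2 had 39.3 RPM in CxWT (1321 reads) and 32.3 in MWT (936 reads), and 2.1 in CxH (81 reads) and 3.10 in MH (116 reads). Slc6a3 had 0.416 RPM in CxH (95% exact Clopper-Pearson interval 0.238 to 0.675, 16 reads) and 0.509 in MH (0.306 to 0.794, 19 reads). In CxWT it had 56.4 RPM (53.9 to 59.0, 1895 reads) and in MWT 49.7 (47.2 to 52.4, 1440 reads). The transporter that most narrowly marks dopamine neurons was therefore near, but above, the floor in CxH and MH. On the scale of reads per length, 0.299% of 12354 genes had a lower level than Slc6a3 in CxH and 0.389% in MH, against 77.1% in CxWT and 75.2% in MWT.

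Aldh1a1 and Ret were also higher in CxWT and MWT than in CxH and MH. Aldh1a1 had 105.7 RPM in CxWT, 159.1 in MWT, 32.6 in CxH and 30.3 in MH, and was the only member with more RPM in MWT than in CxWT. Ret had 49.1, 41.7, 4.18 and 5.0 RPM.

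Nr4a2 ran the other way, and Drd2 did so by less, with counting intervals that overlapped between CxWT and MH. Nr4a2, which besides midbrain dopamine neurons is made in deep cortical neurons and the claustrum, had 11.3 RPM in CxWT (380 reads) and 7.12 in MWT (206 reads), against 24.6 in CxH (947 reads) and 31.0 in MH (1160 reads). Drd2 had 18.4 RPM in CxWT, 13.3 in MWT, 24.9 in CxH and 19.2 in MH. Drd2 was thus the most even of the members over the 4 libraries.

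**Figure D2:**
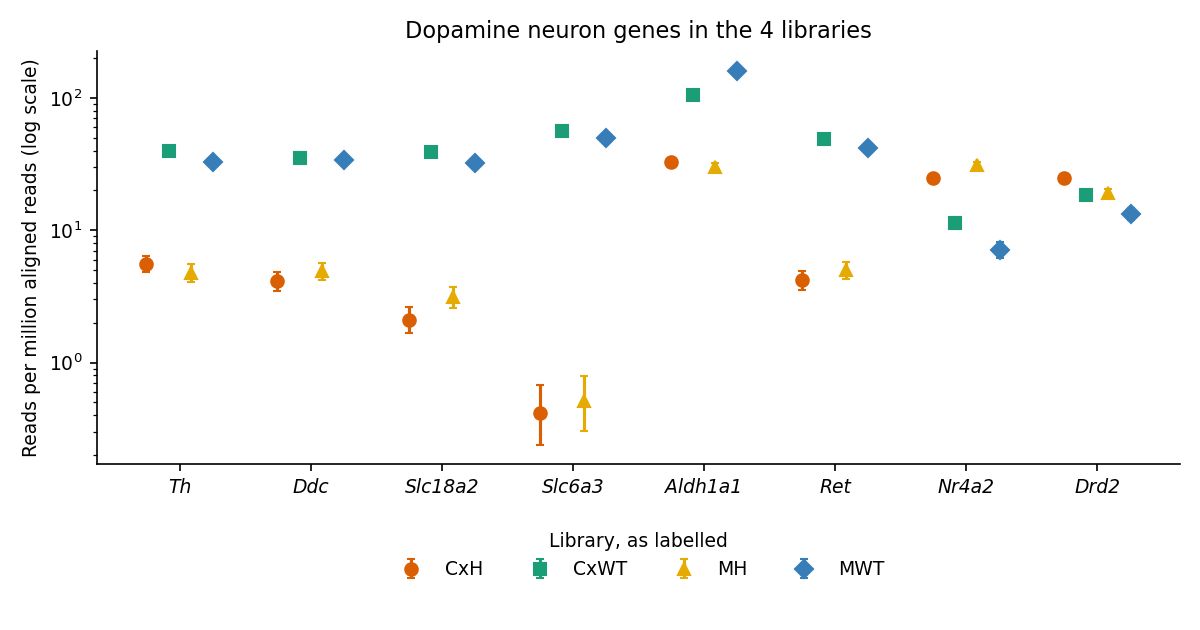
Level in RPM (log scale) of the 8 counted dopamine neuron genes in each library, with bars for the 95% exact Clopper-Pearson interval of the count. Th, Ddc, Slc18a2, Slc6a3, Aldh1a1 and Ret are higher in CxWT and MWT than in CxH and MH. Nr4a2 is lower, as is Drd2 by less, with bars that overlap between CxWT and MH. Slc6a3 has the widest gap, from 0.416 in CxH to 56.4 in CxWT.

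In all, 6 of 8 members were higher in each of CxWT and MWT than in each of CxH and MH, where 36.9% of all genes were, and 2 of 8 were lower in each, where 24.3% of all genes were.

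The question of the first comparison is what the lack of Ids changes in the cortex. In CxH vs. CxWT, 7 of the 8 members were called, where 20.9% of all genes were, 6 of them lower (11.5% of all genes) and 1 higher (9.46%). Slc6a3 had the largest difference, a log2 ratio of -7.08 ± 0.36 (SE from counting), or 135.6-fold less in CxH. Slc18a2 followed at -4.22 ± 0.17 (18.7-fold), then Ret at -3.55 ± 0.12 (11.7-fold), Ddc at -3.09 ± 0.12 (8.54-fold) and Th at -2.85 ± 0.11 (7.19-fold). Both transporters thus differed more than both enzymes. Aldh1a1 was 3.24-fold lower (-1.70 ± 0.047), and Nr4a2 was called higher in CxH (1.12 ± 0.088, 2.18-fold). Drd2 missed the fold threshold with 0.43 ± 0.074. The median log2 ratio was -2.97 over the members and -0.093 over all genes. In the same pair the median log2 ratio was 3.03 for the cortical markers and -4.07 for the thalamic markers, and their part in the members' ratios was not tested.

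The second comparison asks the same of the M area. In the library labelled MH against that labelled MWT, 7 of 8 members were called (25.0% of all genes), 6 lower (12.7%) and 1 higher (12.3%), while Ids itself was higher in MH, with a log2 ratio of 1.24. Slc6a3 again had the largest difference, -6.61 ± 0.33 or 97.8-fold. Slc18a2 stood at -3.38 ± 0.14 (10.4-fold) and Ret at -3.06 ± 0.11 (8.34-fold). The enzymes Ddc and Th had nearly equal ratios, -2.77 ± 0.12 (6.84-fold) and -2.77 ± 0.12 (6.82-fold). Aldh1a1 came to -2.39 ± 0.048 (5.25-fold), and Nr4a2 was called higher in MH with 2.13 ± 0.11 (4.36-fold). Drd2, at 0.53 ± 0.091, was not called. The median was -2.77 over the members and -0.066 over all genes, beside 3.34 for the cortical and -3.23 for the thalamic markers, whose part in the ratios was not tested here either. Whether the ratios of Cx and M differ beyond the spread between pools could not be tested with 1 library each.

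**Figure D3:**
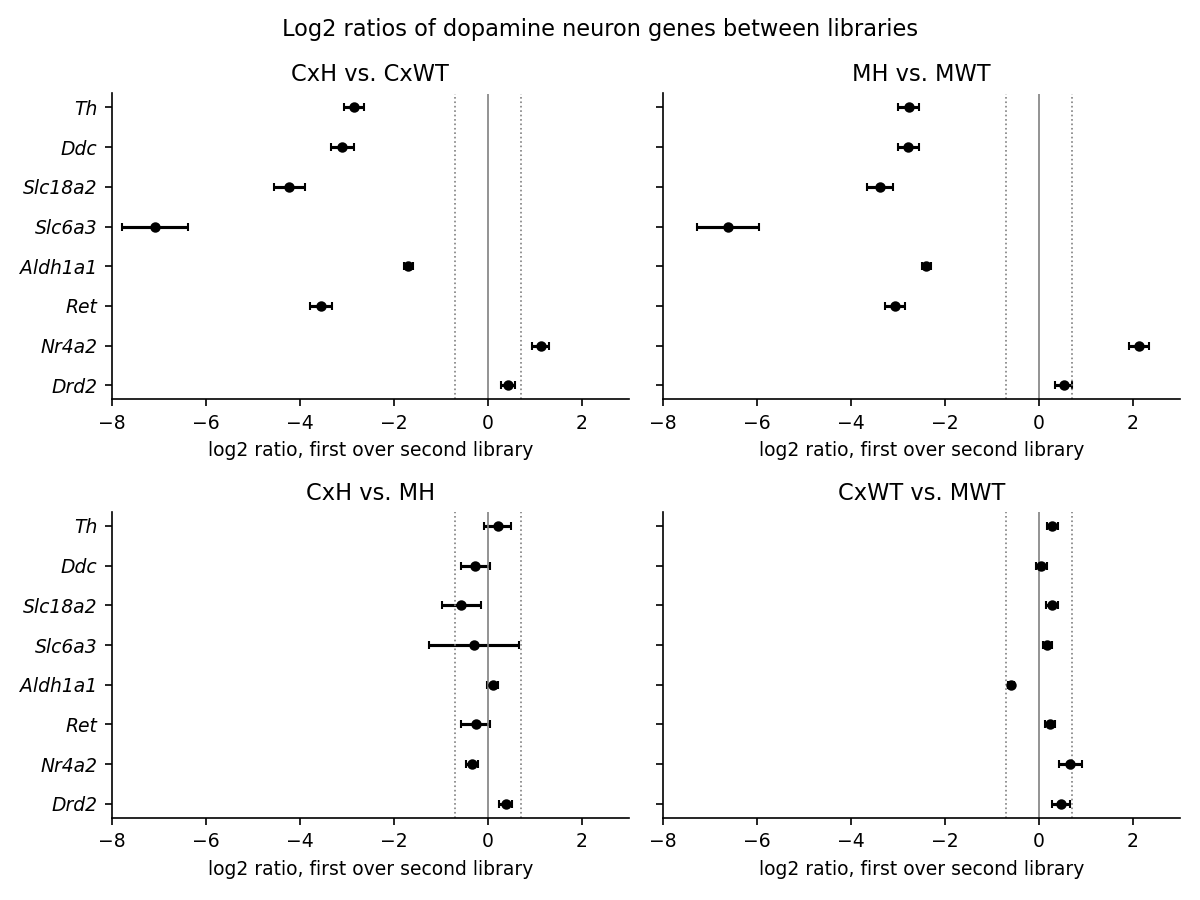
Log2 ratio of each counted member, first over second library, in the 4 comparisons of the study, with 95% intervals from counting. Dotted lines mark a log2 ratio of 0.7 in size and the grey line marks 0. In CxH vs. CxWT and MH vs. MWT 6 members lie far to the left, with Slc6a3 at -7.08 and -6.61, and in CxH vs. MH and CxWT vs. MWT all members lie between the dotted lines, from -0.59 (Aldh1a1) to 0.67 (Nr4a2), both in CxWT vs. MWT.

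The remaining comparisons of the study set one area label against the other within a genotype label. Ids was called in both, with log2 ratios of -1.44 in CxH vs. MH and 1.19 for CxWT against MWT. Of the regional markers, 0 of 9 cortical ones were called in either. Of 5 thalamic markers 2 were called lower in CxH vs. MH, Slc17a6 (-1.05) and Lhx9 (-0.81), and 0 for CxWT against MWT. Of 7 hypothalamic markers 1 was called higher and 1 lower (Oxt) in CxH vs. MH, and Oxt was higher for CxWT against MWT. Of 5 midbrain factors 1 was called higher in CxH vs. MH. Of 5 hippocampal markers 1 was called higher and 1 lower for CxWT against MWT. In CxH vs. MH, 0 of 8 members were called, where 3.50% of all genes were. Slc18a2 had a log2 ratio of -0.56 ± 0.21, Nr4a2 of -0.34 ± 0.063 and Drd2 of 0.38 ± 0.071, and the counting intervals of these 3 left out 0. For Slc6a3 the reads were few and the interval wide, -1.25 to 0.67 around -0.29, so a difference of that size between CxH and MH was not detectable at this depth. Th (0.22 ± 0.15), Ddc (-0.26 ± 0.16), Aldh1a1 (0.11 ± 0.059) and Ret (-0.26 ± 0.16) had intervals that took in 0. The largest log2 ratio of a member between CxH and MH was thus 0.56 in size, with counting intervals that reached -0.97 for Slc18a2 and -1.25 for Slc6a3. The sums of the cortical markers in CxH and MH were at like levels, as given above.

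In CxWT vs. MWT, 0 of 8 members were called, where 7.54% of all genes were. Nr4a2 came nearest to the threshold, at 0.67 ± 0.12, and Aldh1a1 lay on the other side of 0 at -0.59 ± 0.032. Th had 0.29 ± 0.061, Slc18a2 0.28 ± 0.062, Ret 0.23 ± 0.055, Slc6a3 0.18 ± 0.050 and Drd2 0.47 ± 0.094, all higher in the library labelled CxWT. Ddc, at 0.057 ± 0.062, was the one member whose interval took in 0. Over the 10813 genes that reached 100 reads in all libraries, the ratio in this comparison rose with the GC content of the transcript (Spearman's rho 0.63, a description over genes that share both libraries). With a correction for GC content and length, Nr4a2 reached 0.79 and was called. Slc18a2, with the lowest GC content among the members (43.0%), moved to 0.52, Ret to 0.073 and Aldh1a1 to -0.32.

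**Figure D4:**
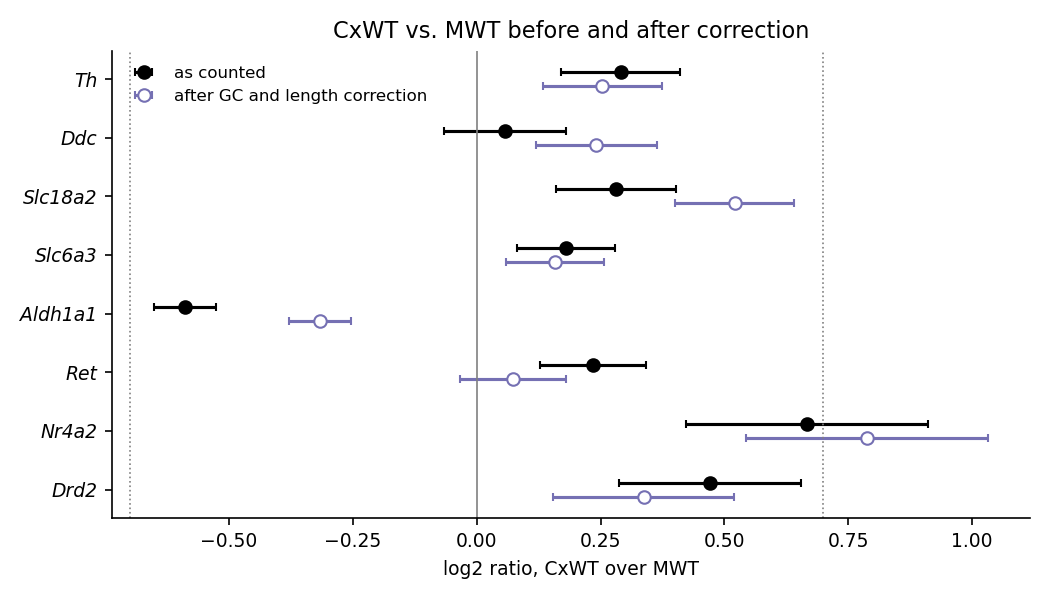
Log2 ratio of each counted member in CxWT vs. MWT as counted (filled) and corrected for the GC content and length of the transcript (open), with 95% intervals from counting and dotted lines at 0.7 in size. Nr4a2 moves from 0.67 to 0.79, past the line, and Ret moves from 0.23 to 0.073, where its interval takes in 0.

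The pairs that differ in both labels were looked at as well, and they share libraries with the comparisons above. In CxH vs. MWT, 8 of 8 members were called (30.7% of all genes), 6 lower (15.1%) and 2 higher (15.6%). Slc6a3 had -6.90 ± 0.36, Th -2.55 ± 0.11, Nr4a2 1.79 ± 0.11 and Drd2 0.91 ± 0.087, and the same correction took Drd2 below the threshold, to 0.59. Ids differed little in this pair as counted, by a log2 ratio of -0.20, and the same correction turned it to 0.38. In MH vs. CxWT, 7 of 8 were called (15.3% of all genes), 6 lower (8.89%) and 1 higher (6.41%). Here Slc6a3 had -6.79 ± 0.33, Th -3.06 ± 0.12 and Nr4a2 1.46 ± 0.085, while Drd2 was even, at 0.055 ± 0.079. Ids was even too, at 0.058, while the median log2 ratio was 2.81 for the cortical and -3.46 for the thalamic markers. The part of Ids and of the regional markers in the members' calls was not tested, and each comparison is of 1 pair of pools.

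The make-up of the members' reads also differed between libraries. For each read of Slc6a3, Th had 13.3 reads in CxH (8.01 to 23.7) and 9.37 in MH (5.83 to 15.9), but 0.706 in CxWT (0.657 to 0.757) and 0.653 in MWT (0.601 to 0.710). Ddc had 9.88 and 9.68 reads per Slc6a3 read in CxH and MH, and 0.622 and 0.677 in CxWT and MWT. Slc18a2 had 5.06 and 6.11 against 0.697 and 0.650, and Ret 10.1 and 9.84 against 0.871 and 0.839. The interval of each of these 4 genes in CxH overlapped that in MH. All 4 ratios are taken over the same reads of Slc6a3, 16 in CxH and 19 in MH. A gene less lowered there than Slc6a3 has a higher ratio by construction, so these are not 4 separate results. Within CxWT and MWT the intervals of Th, Slc18a2, Ddc and Ret overlapped between the libraries as well. Aldh1a1 did not share this, with 1.88 reads per Slc6a3 read in CxWT (1.77 to 1.98) and 3.20 in MWT (3.01 to 3.39), and neither did Nr4a2, with 0.201 (0.179 to 0.224) and 0.143 (0.123 to 0.166).

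**Figure D5:**
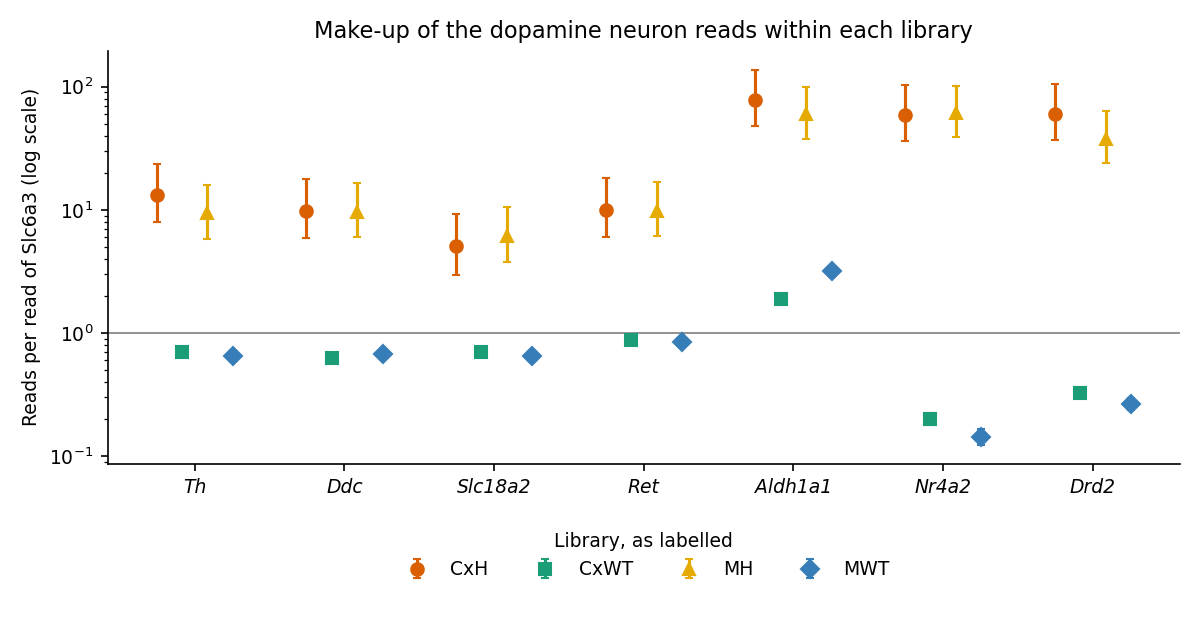
Reads of each member per read of Slc6a3 within each library (log scale), with 95% exact Clopper-Pearson intervals from the counts, and a grey line at 1. In CxWT and MWT Th, Ddc, Slc18a2 and Ret lie just under 1, and in CxH and MH the same genes lie between 5.06 and 13.3.

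Compared per length, as RPKM (RPM divided by the length of the transcript in kilobases), Aldh1a1 was the most abundant member in every library, at 51.5 in CxWT, 77.5 in MWT, 15.9 in CxH and 14.7 in MH. In CxWT it was followed by Th (19.9 RPKM), Ddc (18.0), Slc6a3 (16.3), Slc18a2 (10.3), Drd2 (7.24), Ret (6.69) and Nr4a2 (3.17). The counting intervals of Th and Ddc, Ddc and Slc6a3, and Drd2 and Ret overlapped there. MWT had a similar order, with Ddc at 17.3 RPKM and Th at 16.3, whose intervals overlapped, then Slc6a3 (14.4), Slc18a2 (8.50), Ret (5.68), Drd2 (5.22) and Nr4a2 (1.99), of which only Ret and Drd2 overlapped as neighbours. The order was different in CxH, where Drd2 (9.78 RPKM) and Nr4a2 (6.89) came next to Aldh1a1, ahead of Th (2.77), Ddc (2.11), Ret (0.570), Slc18a2 (0.553) and Slc6a3 (0.120). In MH, Nr4a2 (8.70 RPKM) and Drd2 (7.52) were followed by Ddc (2.53), Th (2.39), Slc18a2 (0.816), Ret (0.682) and Slc6a3 (0.147). Th and Ddc, and Ret and Slc18a2, had overlapping intervals in both CxH and MH, and Slc6a3 was last in both.

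Tetrahydrobiopterin is the cofactor of Th, and all 6 listed genes that make, recycle or control it were counted. In CxH vs. CxWT 3 of them were called, all lower (11.5% of all genes), and in MH vs. MWT 4, all lower (12.7%), with medians of -1.20 and -1.48. Pcbd1, a recycling enzyme, had 10.8 RPM in CxWT, 14.6 in MWT, 2.08 in CxH and 2.17 in MH. Gch1 and Gchfr were also called in both, and are named after their values were seen. Gch1, the first and rate-limiting enzyme of synthesis, had 4.37, 4.25, 1.27 and 1.04 RPM, and Gchfr, its feedback regulator, had 38, 21, 8 and 2 reads. Qdpr, a further recycling enzyme, was called in MH vs. MWT, with 202, 229, 142 and 119.6 RPM. Spr and Pts, the later steps of synthesis, were called in neither.

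Among genes of dopamine breakdown, the monoamine oxidases followed the members. Maoa had 27.2, 34.3, 13.1 and 14.6 RPM in CxWT, MWT, CxH and MH and was called lower in CxH vs. CxWT and in MH vs. MWT. Maob had 60.7, 89.4, 38.0 and 29.6 RPM and was called lower in MH vs. MWT, and just missed the fold threshold in CxH vs. CxWT (-0.67 ± 0.049). Aldh2, an aldehyde dehydrogenase, was called higher in CxH than in CxWT (0.78 ± 0.050).

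Of the other dopamine receptors, Drd1 and Drd5 were counted. Drd1, the D1 receptor of striatal neurons, had 20.7 RPM in CxWT, 24.3 in MWT, 50.7 in CxH and 46.1 in MH and was called higher in CxH and in MH. Drd5 had between 2.55 and 3.90 RPM and was not called. The list of 10 striatal markers, of which Drd1 is one, summed to 848 RPM in CxWT, 828 in MWT, 1680 in CxH and 1417 in MH, with 8, Drd1 among them, called higher in CxH vs. CxWT (9.46% of all genes) and 8 higher and 1 lower in MH vs. MWT (12.3% and 12.7%). Ppp1r1b (DARPP-32) and Pde10a, the genes of the list with the most reads in CxH and MH, had 320.1 and 257.5 RPM in CxH and 87.2 and 116.5 in CxWT. Gnal, a G protein subunit that had the most reads of the list in CxWT and MWT, with 244, 266, 241 and 221 RPM, was not called in CxH vs. CxWT or MH vs. MWT. The part of striatal neurons in the reads of Drd2 was not tested.

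Among 7 further transcription factors of the dopamine lineage, En1, En2, Otx2 and Sox6 were counted, and the first 3 were called lower in both CxH vs. CxWT (11.5% of all genes) and MH vs. MWT (12.7%), with list medians of -2.17 and -2.66. En1, which is needed for the survival of midbrain dopamine neurons, had 273 reads in CxWT, 126 in MWT, 1 in CxH and 0 in MH, and a count of 0 allows up to 0.0803 RPM in MH. En2 had 127, 105, 28 and 10 reads and Otx2 331, 262, 97 and 114. These factors also mark the midbrain at large. Sox6 was level, between 19.4 and 23.1 RPM, and was not called. Between area labels, 1 of 4 was called in CxH vs. MH (3.50% of all genes), En2, which was higher (1.44). In CxWT vs. MWT 1 of 4 was called (7.54%), En1, also higher (0.90).

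Ret works with co-receptors of the GDNF family, of which Gfra1, Gfra2 and Gfra4 were counted. Gfra1, the co-receptor for GDNF itself, had 36.9, 33.9, 31.6 and 26.7 RPM and was not called, unlike Ret. Gfra2 had 30.8, 21.6, 45.7 and 36.4 RPM and was called higher in MH than in MWT (0.76 ± 0.070). Gfra4, with 4.05, 3.63, 7.84 and 5.22 RPM, was called higher in CxH than in CxWT (0.95 ± 0.15). Of the 3 co-receptors 0 were called lower in CxH vs. CxWT or MH vs. MWT. For so few genes that is near the share of all genes called lower, 11.5% and 12.7%.

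Of 8 other genes known from dopamine neurons, 5 were called lower (11.5% of all genes) and 0 higher in CxH vs. CxWT, and 6 lower (12.7%) and 0 higher in MH vs. MWT, with medians of -2.24 and -3.01. Chrna6, a nicotinic receptor subunit of dopamine neurons, had 468 reads in CxWT and 339 in MWT, and 7 in CxH and 14 in MH. Dlk1 had 87.4, 73.8, 8.26 and 7.60 RPM and Sncg (gamma-synuclein) 19.1, 14.5, 2.65 and 1.98. Calb1, a calcium-binding protein made by many other neurons as well, was not called, with 70.2, 94.4, 58.1 and 59.4 RPM, nor was Ntsr1, a neurotensin receptor (-0.67 ± 0.11 and -0.17 ± 0.13). The remaining calls, like Ntsr1 named after their values were seen, were Slc10a4 and Chrnb3 in both comparisons and Anxa1 in MH vs. MWT. Between area labels, 2 of 8 were called in CxH vs. MH (3.50% of all genes), Chrnb3 (1.45) and Slc10a4 (0.74), both higher. In CxWT vs. MWT 1 of 8 was called (7.54%), Anxa1, which was lower (-0.78).

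Neurons of the other monoamines were checked because they share Th, Ddc and Slc18a2. Dbh, which turns dopamine into noradrenaline, had 107 reads in CxWT and 82 in MWT, and 13 in CxH and 14 in MH. Tph2, the serotonin-synthesising enzyme, had 23.1, 25.3, 0.493 and 0.964 RPM, and Slc6a4, the serotonin transporter, had 647, 446, 3 and 2 reads. Each of these 3 was called lower in CxH vs. CxWT (11.5% of all genes) and in MH vs. MWT (12.7%), while Htr1a, a serotonin receptor found on many neurons, was not. The part of noradrenaline and serotonin neurons in the reads of Th, Ddc and Slc18a2 was not tested.

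The genes whose levels over the 4 libraries were most like the mean of Th, Slc6a3 and Slc18a2 were sought among 11987 others with at least 100 reads in some library, by Euclidean distance of centred log2(RPM + 0.1). The nearest 10 were Glra1, Gabrq, Arhgap36, Dgkk, Irs4, Ebf3, Sytl4, Pax7, Tcf7l2 and Lhx5, at distances from 0.231 to 0.538. Slc18a2 itself lay at 0.665, Th at 1.61 and Slc6a3 at 2.20, so these genes sat nearer to the mean than did the members it was made from. Glra1, a glycine receptor subunit, had 7.56, 5.77, 0.156 and 0.214 RPM in CxWT, MWT, CxH and MH, and Gabrq, a GABA-A receptor subunit, 10.4, 8.33, 0.390 and 0.535. Pax7 and Tcf7l2 also stand on the lists of midbrain and thalamic markers.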

How the data were processed

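The 4 libraries were sequenced on a SOLiD 3 Plus instrument. The authors aligned the reads to NCBI37/mm9 with PASS, with at most 2 mismatches and no gap, counted those on a single gene, kept genes with more than 50% of their length covered and deposited the counts without normalization. The gene annotation and the use of strand are not given in the sources used here.

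Symbols were matched to Entrez identifiers with RefSeq (12690 of 12700), and transcript length, GC content and positions came from GENCODE vM1 (12354 genes). RPM used the aligned reads given by the study, RPKM also the length of the transcript. A count of 0 was set to 1 for ratios. All genes were tested between each of 6 pairs of libraries by a likelihood ratio test of Poisson counts, in place of a test that needs replicates. Alternatives were column totals, TMM (edgeR 4.0.16) and DESeq2 1.42.0 size factors, a log2 threshold of 1, Benjamini-Hochberg adjustment, 0.5 added to every count, a minimum of 100 reads, edgeR's exact test at a preset coefficient of variation of 0.2, and a fit on GC content and length. A call on the fold alone and an additive fit of both labels were added after the data were seen.

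All members and Ids are named, with at most the 4 most counted genes of each list (all in lists of up to 5), and the 10 genes nearest in profile. Genes named beyond this are marked where they stand as named after their values were seen. Some list results are not reported here. The members and lists were chosen with earlier results of these data known. Steps were checked on simulated data. The software was R 4.3.3 and Python 3.11.15 with scipy 1.17.1, pandas 2.3.3, numpy 2.4.6 and matplotlib 3.10.9. Errors cover counting only, and reads are not independent molecules.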

Additional observations from a re-analysis of the deposited data

Results flagged for a closer look

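Pairs of log2 ratios in which the same contrast gave opposite signs are listed here, each with a counting interval that left out 0. With 1 library per condition, the difference between the ratios of a pair was not tested. Ids had -1.39 in CxH vs. CxWT and 1.24 in MH vs. MWT, and 1.19 in CxWT vs. MWT and -1.44 in CxH vs. MH. Slc18a2 had 0.28 in CxWT vs. MWT and -0.56 in CxH vs. MH. Nr4a2 had 0.67 in CxWT vs. MWT and -0.34 in CxH vs. MH. The ratios of Slc18a2 and Nr4a2 stayed under the fold threshold of 0.7 as counted.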

How the results depend on the processing

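Of 240 log2 ratios of members recomputed with other scalings, with 0.5 added to every count or with the correction for GC content and length, 237 kept their direction and their side of the threshold. Ddc in CxWT vs. MWT changed sign with column totals, to -0.034, and was not called either way. With the correction, 1 member was called in CxWT vs. MWT in place of 0 (Nr4a2, 0.79), and Drd2 was not called in CxH vs. MWT (0.59). A log2 threshold of 1 also lowered the members called in CxH vs. MWT from 8 to 7. Counts of members called were otherwise the same under the alternatives run. Over all genes, the log2 threshold of 1 lowered the calls from 2658 to 1401 in CxH vs. CxWT, from 3170 to 1642 in MH vs. MWT, from 444 to 143 in CxH vs. MH, from 958 to 295 in CxWT vs. MWT, from 3895 to 1961 in CxH vs. MWT and from 1943 to 1064 in MH vs. CxWT. An assumed coefficient of variation of 0.2 left 487 calls in CxWT vs. MWT and 191 in CxH vs. MH. The correction left 294 in CxH vs. MH, 387 in CxWT vs. MWT and 1908 in CxH vs. MWT. Column totals shifted every log2 ratio of CxH vs. MWT by -0.11, and TMM and DESeq2 size factors those of MH vs. CxWT by 0.11. No paired analysis was possible because the groups of any 1 comparison hold 1 library each, and for the same reason no library could be left out of a group. Across comparisons, however, Cx and M came from the same mice by the study's methods, and 1 additive fit of genotype label and area label over the 4 libraries, added after the data were seen, leaves 1 residual degree of freedom. With edgeR's quasi-likelihood test and Benjamini-Hochberg adjustment, 7 of 8 members were called by genotype label (15.4% of all genes), all but Drd2, and 0 of 8 by area label, where 0 of 12700 genes were called. At an unadjusted p under 0.05 the area label had 1 member and 615 genes. The residual of this fit reflects how far the areas, cut from the same mice, differ in genotype ratio, and holds no spread between mice. These calls therefore describe the pools and are not replicated results for a genotype. The labels are those that Ids and the regional markers do not bear out. The 16 and 19 reads of Slc6a3 in CxH and MH limit what can be said of that gene there.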
